A study of Homo sapiens with 3 samples.

Results

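Messenger RNA of TC32 cells, an established line of Ewing sarcoma, was compared between a library made after knockdown of the fusion EWS-FLI1 and a library of control cells, which are 2 of the 3 libraries in the series. The comparison covers the 9939 of 22714 gene names whose mean FPKM over the 3 libraries was at least 1. The genotype field calls the control "WT Control" and the other library a knockdown of EWS-FLI1, whose title shortens it to shEF while the heading of its values reads dEF. The third library came from cells given the compound that its title calls YK, a small molecule developed against EWS-FLI1, at 3 µM in DMSO for 15 hours. Its values enter the scaling, the filter on mean FPKM and the grouping of genes by abundance, and otherwise appear beside the members and lists. Both compared libraries come from 1 cell line grown in the same medium. The labels do not say which hairpin was used, whether the control received a hairpin or vehicle, how long the knockdown lasted or whether the cells were a selected clone. Each group is 1 library, so there is no spread between replicates, no test was made, and every direction given holds for these libraries.

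EWS-FLI1 joins the transactivating part of EWSR1 to the DNA-binding part of FLI1, a transcription factor of the ETS family, and is the driver of most Ewing sarcomas. The fusion activates genes through GGAA repeats that it turns into enhancers, and it represses other genes, many of them belonging to mesenchymal cells. Ewing sarcoma cells that lose the fusion are known to spread, to build actin stress fibres and to take on features of mesenchymal stem cells.

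FLI1, whose 3′ part the fusion carries, had a level of 21.4 scaled FPKM in the control, 2.13 after knockdown and 17.6 with YK. Of the 3 libraries the knockdown alone was low in FLI1, with a relative log2 ratio of -2.84 (counting SE 0.06), the 19th lowest value among the genes ranked. Scaled FPKM are the deposited values after each library was set on its median gene, and the relative log2 ratio is the knockdown value less the control value of log2(scaled FPKM + 1). EWSR1, which is also read from its intact allele, had levels of 80.2, 58.5 and 76.9 scaled FPKM in the same order. CD99, the surface antigen used to diagnose the tumour, was listed at 0 in all 3 libraries, so that no value is drawn from it. Of the other Ewing sarcoma markers on a list of 10, 9 were compared, 5 were lower and 0 higher. The sum of the 10 was 285 scaled FPKM in the control, 67.9 after knockdown and 373 with YK, of which STEAP1 alone made 177, 30.8 and 148.

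The threshold for a call was a relative log2 ratio of 1 or more, or of -1 or less, which is 2-fold on values with 1 added. By this rule 1715 genes (17.3%) were higher and 1689 (17.0%) were lower after knockdown, and these shares are the background against which each list below is read. A gene under 1 scaled FPKM in the control cannot be called lower, so lists of genes scarce there had little room for lower members. The genes nearest the threshold stood at 1.0013 and 0.9999 on the higher side and at -1.0004 and -0.9998 on the lower side. The sides differed in reach. A ratio of at least 3 was found for 161 genes and one of -3 or less for 25. Genes under 1 scaled FPKM in the control and at 10 or more after knockdown numbered 105, of which 24 were listed at 0 in the control. The reverse held for 13 genes, 11 of them listed at 0 after knockdown. Most entries listed at 0 on either side were small RNAs. This kind of library does not count them evenly, and they also enter the counts at 3 and -3. The split into higher and lower rests on the scaling. With the median taken over all named genes above 0, the scale first planned, 911 were higher and 3358 lower, and the median compared gene stood at -0.50. There were 3035 higher and 601 lower when the libraries were set on the same sum. The deposited values give 301 and 7094, with a median of -1.75.

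**Figure D1:**
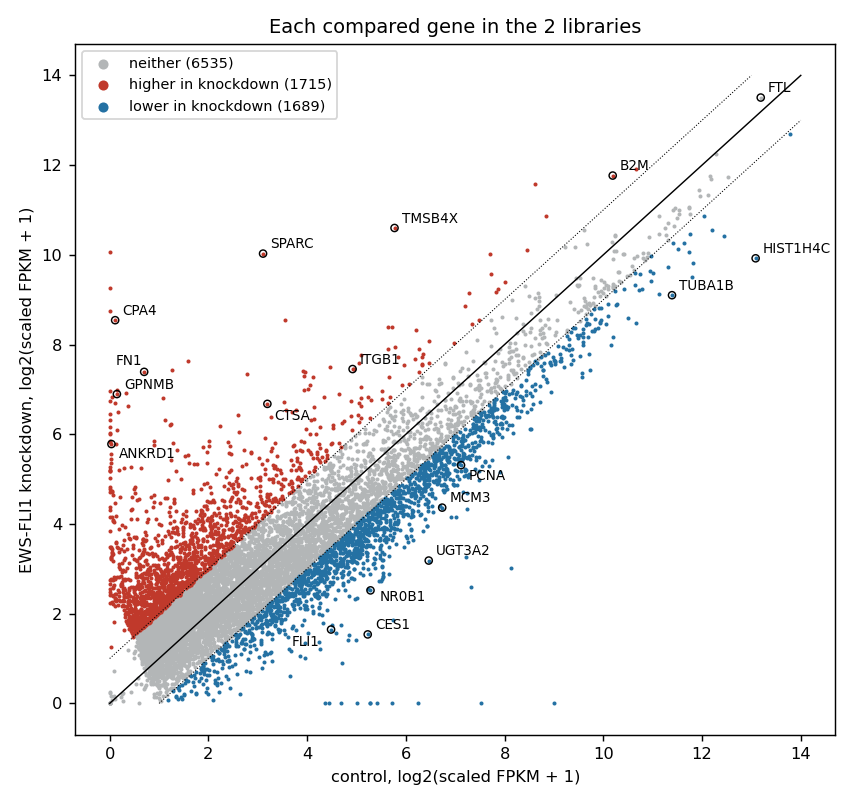
Level of each of the 9939 compared genes in the control (x axis) and after knockdown (y axis), both as log2(scaled FPKM + 1). Each point is 1 gene in 1 library a side, the solid line marks equal values and the dotted lines a relative log2 ratio of 1 and -1, and the 1715 higher genes (red) reach farther from the solid line than the 1689 lower genes (blue).

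The relative log2 ratio moved with abundance. The genes were also ordered by FPKM in the YK library, which is outside the comparison, and divided into 5 groups of equal size. Across these groups the median ratio was 0.65 among the scarcest and -0.96 among the most abundant genes. The scarcest group held 655 higher and 25 lower genes, and the most abundant group 79 higher and 945 lower. The scarcest group ended at 0.734 FPKM in the YK library. A gene under 1 scaled FPKM in the control cannot be called lower, which left less room for lower calls there. Transcript length moved with it less, from a median of -0.18 in the shortest to 0.35 in the longest of 5 such groups. Each list median printed is therefore also given as abundance-corrected, which is less the running median of genes of like level in windows of 501 genes. On this scale 1472 genes were higher and 1077 lower. What part of the trend belongs to the cells, to the making or scaling of the libraries or to the limit on scarce genes was not tested. The compared genes were estimated to hold 3.01e+07 fragments in the control, 1.76e+07 after knockdown and 2.24e+07 with YK, and the median counting SE of a ratio was 0.07.

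**Figure D2:**
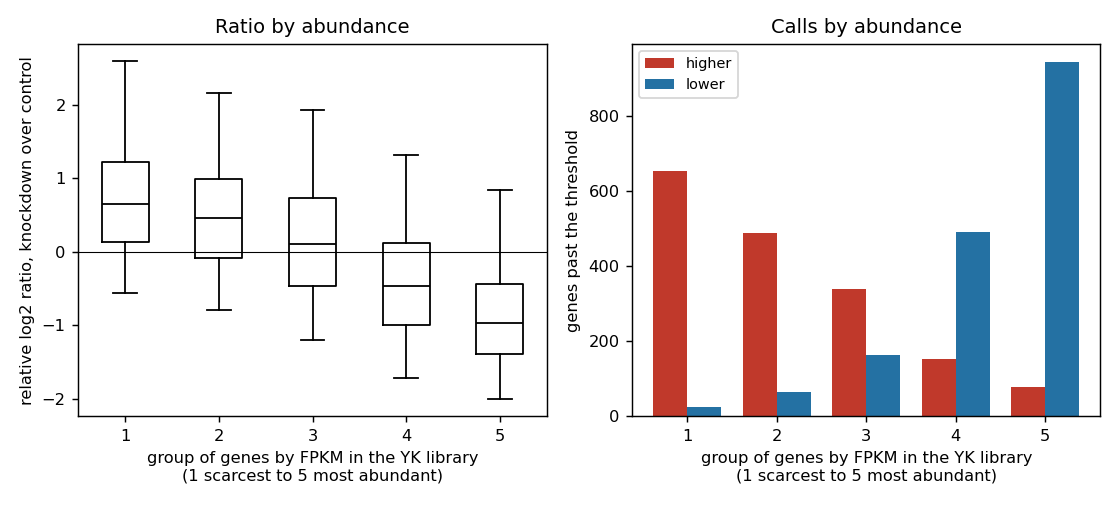
Relative log2 ratio (left; boxes span the quartiles with the median as a line, whiskers the 5th to 95th percentile of genes) and number of genes past the threshold (right; higher in red, lower in blue) in 5 equal groups of the compared genes ranked by FPKM in the YK library. The median went from 0.65 to -0.96, and the lower calls from 25 to 945, between the scarcest and the most abundant group. Scarce genes had less room to be called lower.

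Of the 30 highest single genes, 9 stand on the list of genes repressed by the fusion, 8 on that of matrix glycoproteins, 5 on that of YAP and TEAD targets, 4 on that of matrix proteases and their inhibitors and 3 on that of actin genes, and 4 stand on no list. A gene may stand on several lists, and the lists were written with earlier results of these data known. CPA4, a secreted carboxypeptidase, had a level of 0.080 scaled FPKM in the control, 372 after knockdown and 7.34 with YK. Its place among the compared genes, by level, went from 9853 in the control to 167. SPARC, a collagen-binding glycoprotein of the matrix, had levels of 7.62, 1042 and 55.3 scaled FPKM and went from place 4081 to place 52, with a ratio of 6.92. TMSB4X, which encodes the actin monomer-binding peptide thymosin beta-4, had 53.6, 1549 and 285 scaled FPKM and rose from place 1236 to place 27. All 3 were highest after knockdown and lowest in the control. NT5E, the ecto-nucleotidase CD73 that marks mesenchymal stem cells, had levels of 0.0238, 45.8 and 1.24 scaled FPKM (ratio 5.52). IGFBP7, a secreted IGF-binding protein, had 0.0892, 54.1 and 1.76 (5.66). LGALS3BP, a secreted galectin ligand, had 1.16, 79.4 and 6.57 (5.21). F2R, the thrombin receptor, had 1.36, 74.5 and 3.57 scaled FPKM (5.00) and NEAT1, the architectural RNA of paraspeckles, had 1.34, 72.4 and 7.70 (4.97). The remaining members included A2M, a protease inhibitor of broad range, at 6.17, CLU, a secreted chaperone, at 6.04, and DHRS3, a retinal reductase, at 4.66. Each of the 30 was also higher under all 13 alternative settings for scale, filter and pseudocount, which their choice by ratio largely fixed. With YK, 23 of the 30 had a ratio of at least 1 against the same control library, where 2.41% of all compared genes did. The 30 were picked for being high against that library, in which FABP4 rests on about 1.6 fragments. A control value that is too low raises both ratios, so the YK count is not independent.

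**Figure D3:**
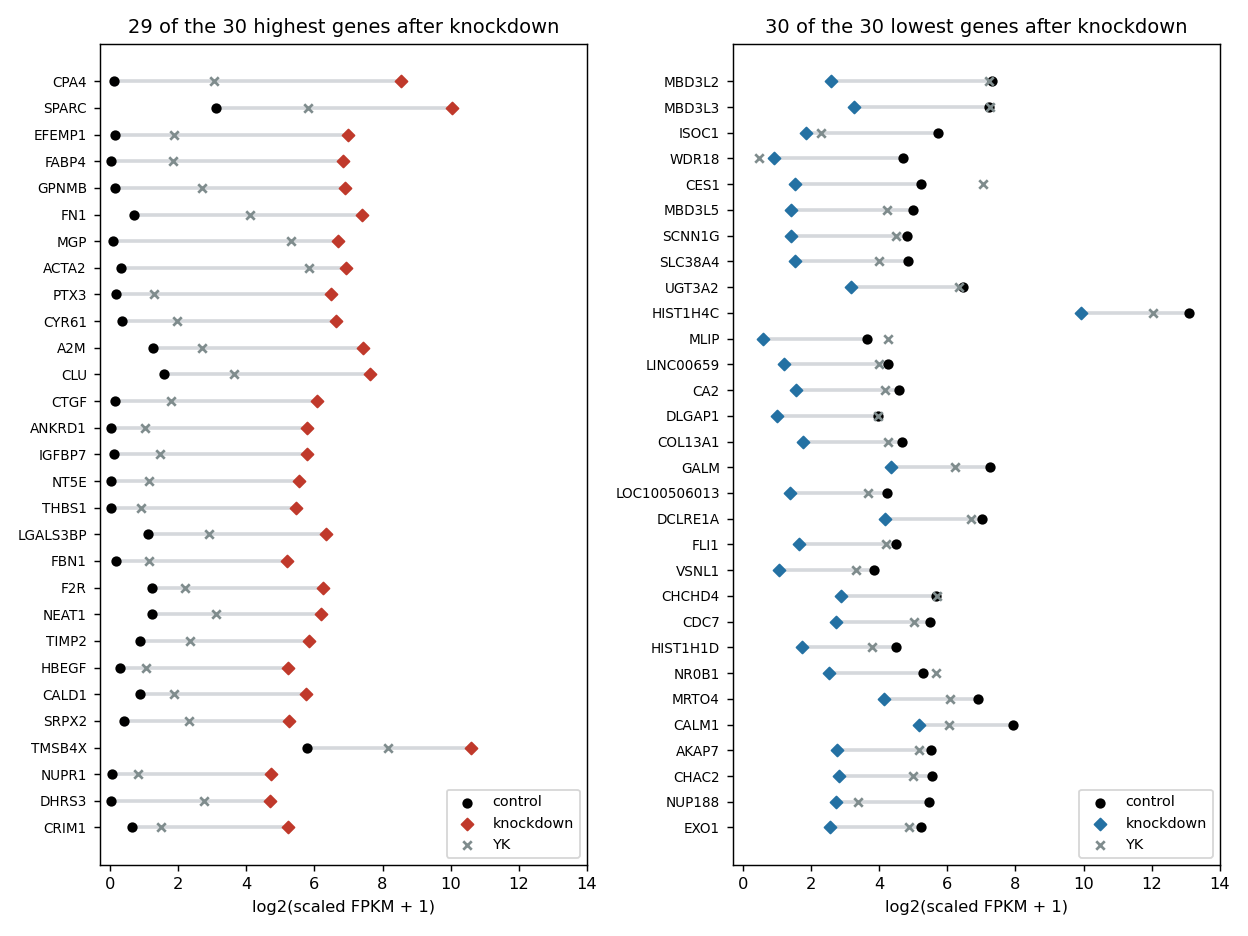
Level as log2(scaled FPKM + 1) of 29 of the 30 highest (left) and the 30 lowest (right) genes after knockdown, ordered by relative log2 ratio; circles are the control, diamonds the knockdown and crosses the YK library, 1 library each. Most of the highest genes start near 0 in the control, as CPA4 does at 0.080 scaled FPKM, whereas the lowest start from middle levels, as NR0B1 does at 38.

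Most matrix genes compared were higher. Of 33 matrix glycoproteins and proteoglycans compared, 30 were higher and 1 lower, with a median ratio of 2.85 (2.48 abundance-corrected) against 0.01 for all genes compared. The median place of the 33 in the control was 9617, which left little room for lower members. The scarcest of them pass the filter only through another library, so their direction was largely set by it. The list's share of the summed FPKM of all named genes, which needs no scaling between libraries, was 0.135% in the control, 0.733% after knockdown and 0.151% with YK. EFEMP1, or fibulin-3, had 0.113, 126 and 2.69 scaled FPKM (ratio 6.83), and THBS1, or thrombospondin-1, had 0.0176, 42.6 and 0.902 (5.42). TNC, or tenascin-C, had 0.377, 23.3 and 7.18 (4.14). DCN, the proteoglycan decorin, was the 1 lower member, with 8.82, 1.70 and 5.76 scaled FPKM (-1.86), and MFAP4, a protein of elastic fibres that was abundant in every library, had 644, 496 and 577. A further 31 members did not reach the filter on mean FPKM. All 3 bone and cartilage genes compared were higher, with a median of 3.20 (2.67 abundance-corrected), led by MGP, an inhibitor of calcification, with 0.0715, 104 and 38.7 scaled FPKM (6.61). Another 25 members of that list did not reach the filter, and the median place of the 3 in the control was 9857. Genes that scarce in the control pass the filter only through another library, so the direction of these 3 was largely set by it.

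Few collagens were transcribed at a level that could be compared. Of 37 names on the list, 9 passed the filter, 7 of these were higher and 2 lower, and their median was 2.03 (1.61 abundance-corrected). The locus that joins COL3A1, a fibrillar collagen, with a pair of microRNA names had 1.13, 112 and 3.40 scaled FPKM (ratio 5.73). COL5A2 had 2.02, 45.2 and 2.89 (3.94) and COL5A1 had 0.0229, 9.97 and 0.704 (3.42), both chains of the collagen that starts fibrils. COL1A1, the main collagen of bone and skin, stayed scarce at 0.308, 2.87 and 1.09 scaled FPKM (1.56). COL13A1, a collagen of the cell membrane, was the lowest member, with 24.6, 2.37 and 18.4 (-2.92), and COL21A1 had a ratio of -1.07. The enzymes that modify and cross-link collagen went with the fibrillar chains, with 13 of 16 higher, 0 lower, the median being 2.13 (2.29 abundance-corrected). Among them, SERPINH1, the chaperone of procollagen, had 1.74, 15.6 and 2.26 scaled FPKM (2.60). P4HA2, a prolyl hydroxylase, stood at 2.57 and PLOD2, a lysyl hydroxylase, at 2.36, while LEPREL1, another prolyl hydroxylase, was the highest at 3.89.

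Proteases of the matrix and their inhibitors were high together. Of 29 compared, 24 were higher and 0 lower, with a median of 1.98 (1.95 abundance-corrected). PLAU, the protease urokinase, had 0.0390, 8.91 and 0.421 scaled FPKM (ratio 3.25). MMP2, a gelatinase, had 1.44, 55.3 and 2.25 (4.53). TIMP2, which binds MMP2, had 0.859, 56.9 and 4.12 (4.96). The related inhibitors TIMP1 and TIMP3 had ratios of 0.13 and 0.11, TIMP1 with 402, 441 and 461 scaled FPKM.

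Genes of the actin skeleton moved both ways. Of 47 compared, 19 were higher and 7 lower, with a median of 0.77 (1.13 abundance-corrected, with 26 higher and 2 lower). On the scale of all named genes the list held 13 higher and 14 lower members, so that its balance rests on the scaling. ACTA2, the actin of smooth muscle, had levels of 0.253, 120 and 56.2 scaled FPKM (ratio 6.59), and TAGLN, an actin-binding protein of smooth muscle, had 0.124, 10.0 and 1.95 (3.29). CALD1, or caldesmon, had 0.866, 53 and 2.66 (4.86), and TPM1, a tropomyosin, had 1.59, 49.4 and 2.19 (4.29). The lowest members were CFL2, a cofilin, with 45.8, 9.04 and 37.0 scaled FPKM (-2.22), EZR, or ezrin, at -1.81, and RDX, or radixin, at -1.31. The last pair tie actin to the membrane.

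Integrins and proteins of focal adhesions had 16 of 26 members higher, 1 lower and a median of 1.85 (1.60 abundance-corrected). VCL, or vinculin, which ties integrins to actin, had 14.3, 156 and 18.0 scaled FPKM (ratio 3.36). ITGB1, the beta chain shared by many integrins, had 29.3, 174 and 36.9 (2.53), and ITGAV had 1.48, 21.0 and 2.49 (3.15). ITGB5, a partner of ITGAV, was the highest at 3.87, and TNS1, or tensin-1, the 1 lower member, stood at -1.46. With YK the ratios of VCL, ITGB1 and ITGAV to the same control were 0.32, 0.32 and 0.49.

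Targets of YAP and TEAD, transcriptional partners that respond to cell spreading and actin tension, were high as well. Of 23 compared, 19 were higher and 0 lower, with a median of 1.82 (1.51 abundance-corrected), and the list's share of named FPKM went from 0.00644% to 0.138%, with 0.0123% under YK. The median place of the 23 in the control was 8710, which left little room for lower members. CYR61 and CTGF, secreted matricellular proteins, had levels of 0.293, 98.1 and 2.89 (ratio 6.26) and of 0.103, 67.0 and 2.46 scaled FPKM (5.95). ANKRD1, a nuclear ankyrin-repeat protein, had 0.0252, 54.0 and 1.06 (5.75), and AMOTL2, a feedback inhibitor of YAP, had 0.326, 11.7 and 0.746 (3.25). Of the factors, TEAD1 had 2.26, 10.2 and 3.21 scaled FPKM (1.79) and YAP1 1.78, 3.88 and 2.12 (0.81), this pair being named for its tie to the motif after its values were seen, while TEAD2, TEAD4 and the kinase LATS1 had ratios of 0.61, 0.16 and 0.22. The promoters of CTGF and ANKRD1 are shown because they carry repeated copies of the core of the TEAD site, CATTCC on either strand, in the 250 bases before the RefSeq start (build GRCh38.p14). Capitals mark the core, which reads GGAATG here, and the windows are chr6:131951373-131951622 and chr10:90921088-90921337, both on the minus strand and written 5′ to 3′.
CTGF: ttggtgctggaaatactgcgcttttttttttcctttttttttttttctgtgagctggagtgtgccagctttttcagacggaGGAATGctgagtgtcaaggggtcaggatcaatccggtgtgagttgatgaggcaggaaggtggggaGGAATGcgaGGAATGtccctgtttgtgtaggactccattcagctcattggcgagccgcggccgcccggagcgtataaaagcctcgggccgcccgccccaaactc
ANKRD1: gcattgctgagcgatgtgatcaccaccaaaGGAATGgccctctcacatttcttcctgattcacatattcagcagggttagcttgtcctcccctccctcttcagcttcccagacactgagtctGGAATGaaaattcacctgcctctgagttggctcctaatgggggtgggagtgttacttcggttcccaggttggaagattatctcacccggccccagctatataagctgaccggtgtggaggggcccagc
The copies start 169, 104 and 95 bases before the start of CTGF and 220 and 128 bases before that of ANKRD1. The core stood in 4 of the 16 promoters matched from the list (25%), in 9.88% of the promoters of all higher genes, in 9.52% of those of all lower genes and in 11.9% of all 27305 promoters. Compared genes past neither threshold had it in 9.13%. The core also stood in 8 of 17 matched promoters of the 30 highest genes (47.1%) and in 6 of 23 of the 30 lowest (26.1%). Most other lists had a lower share than 25%, but some had a like one, as interferon-stimulated genes at 26.3%. The share is thus not particular to the targets of YAP and TEAD. Promoters of compared genes had a median of 64.4% G and C, against 58% for all promoters, which makes the latter an unlike background. A match is a string of letters and not a bound site.

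The CArG box, the site of the serum response factor that drives contractile genes, was looked for in the same windows. ACTG2, the gamma actin of smooth muscle, had 0.310, 11.9 and 15.6 scaled FPKM (ratio 3.30) and is shown because its promoter (chr2:73892758-73893007, plus strand) holds a pair of these boxes, in capitals, 110 and 73 bases before the start.
ACTG2: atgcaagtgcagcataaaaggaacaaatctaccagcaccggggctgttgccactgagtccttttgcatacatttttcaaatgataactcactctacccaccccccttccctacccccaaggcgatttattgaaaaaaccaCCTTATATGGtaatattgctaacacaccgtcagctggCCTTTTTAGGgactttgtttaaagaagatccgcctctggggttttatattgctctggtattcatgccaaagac
The box stood in 6 of 43 promoters matched from the actin list (14%), in 1.56% of the promoters of higher genes, in 0.680% of those of lower genes and in 1.14% of all promoters. Compared genes past neither threshold had it in 0.973%.

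Lysosomal genes, which encode the hydrolases and membrane proteins of the cell's degradative organelle, were mostly higher. Of 46 compared, 34 were higher and 0 lower, and the median was 1.82 (2.0 abundance-corrected, with 37 higher). Their share of named FPKM was 0.266% in the control, 1.65% after knockdown and 0.257% with YK, where 1 member was higher. CTSA, the protective protein cathepsin A, had levels of 8.16, 101 and 7.13 scaled FPKM (ratio 3.48). The joined locus MIR4709,NPC2, whose protein NPC2 carries cholesterol out of the lysosome, had 48.7, 334 and 60.9 (2.75). CTSB and CTSD, lysosomal proteases, had 28.8, 107 and 28.3 (1.86) and 1.18, 12.2 and 1.16 (2.60). GPNMB, a glycoprotein of lysosomes and melanosomes, was the highest with 0.107, 118 and 5.51 (6.75), and IGF2R, the receptor that sorts hydrolases to the lysosome, stood at 3.59. Members of the proton pump stood at the other end, ATP6V0D1 at -0.33 and ATP6V1A at -0.36, with the thioesterase PPT1 at -0.52. After knockdown CTSA, NPC2, CTSB and CTSD were each above both other libraries, which lay close to each other.

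A group of lysosomal genes is known to answer to the factors TFEB and TFE3 through the CLEAR element, whose core TCACGTGA reads the same on both strands. The core stood in 6 of the 31 promoters matched from the list (19.4%), in 2.88% of the promoters of higher genes, in 1.44% of those of lower genes and in 0.890% of all promoters. Compared genes past neither threshold had it in 1.95%. CTSA and LAMP1 (chr20:45891085-45891334 and chr13:113296989-113297238, both on the plus strand) are shown as examples, with the core in capitals 26 and 29 bases before the start.
CTSA: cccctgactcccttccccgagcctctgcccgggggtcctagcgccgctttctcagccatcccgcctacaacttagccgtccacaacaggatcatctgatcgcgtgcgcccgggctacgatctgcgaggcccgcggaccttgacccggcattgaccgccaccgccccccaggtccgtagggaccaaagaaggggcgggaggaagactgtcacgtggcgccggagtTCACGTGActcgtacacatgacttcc
LAMP1: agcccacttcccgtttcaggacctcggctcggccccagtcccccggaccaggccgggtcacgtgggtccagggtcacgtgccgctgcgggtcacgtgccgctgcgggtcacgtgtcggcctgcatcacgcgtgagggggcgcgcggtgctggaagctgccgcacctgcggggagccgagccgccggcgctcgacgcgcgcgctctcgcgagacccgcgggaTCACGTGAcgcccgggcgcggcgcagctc
LAMP1, a main protein of the lysosomal membrane, had 0.589, 11.5 and 1.96 scaled FPKM (ratio 2.98). The other members with the core were IGF2R, MCOLN1, GAA and ATP6V0D1, whose ratios ran from 3.59 to -0.33, so that members with the core stood at both ends of the list. TFE3 itself had 1.78, 6.36 and 2.27 scaled FPKM (1.41), and the related MITF 0.475, 2.21 and 0.658 (1.12). These factors were also picked for the motif after their values were seen.

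**Figure D4:**
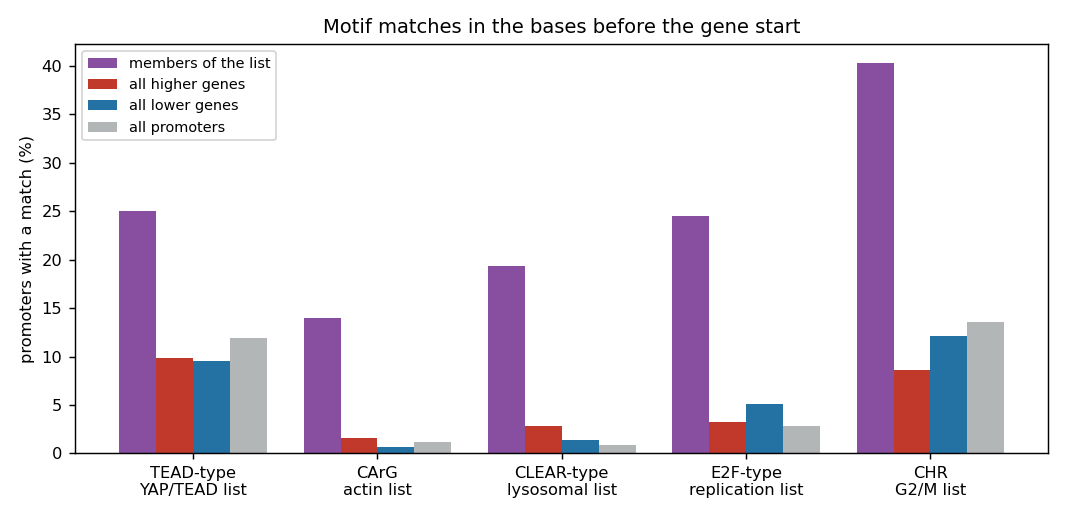
Share of promoters (250 bases before the start, both strands) that hold each motif, among members of the list named under it (purple), all higher genes (red), all lower genes (blue) and all 27305 promoters (grey). Each motif drawn was more frequent in its own list than in all promoters, as the E2F-type motif at 24.5% against 2.79%. For these motifs the higher and lower genes as a whole lay between 0.680% and 12.1%. The tandem GGAAGGAA, not drawn, stood in 1 of 33 promoters of genes known as activated by the fusion (3.03%). It stood in 2 of 22 of those known as repressed (9.09%) and in 2.99% of all promoters. Compared genes past neither threshold, which are not drawn, held the E2F-type motif at 5.10%.

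Signalling genes were high at several levels. Of 21 cytokines, chemokines and their receptors compared, 14 were higher and 3 lower, with a median of 2.02 (1.53 abundance-corrected). Their median place in the control was 9137, and a further 52 did not reach the filter. PTX3, a secreted pentraxin, had 0.131, 89.2 and 1.48 scaled FPKM (ratio 6.32), HBEGF, a ligand of the EGF receptor, had 0.226, 36.8 and 1.09 (4.95), and CCL2, a chemokine for monocytes, was listed at 0 in the control and had 25.1 and 4.01. The cytokine MIF had 976, 355 and 47.1 (-1.46) and TGFA, another EGF receptor ligand, stood at -1.61. Of 17 receptor tyrosine kinases, 15 were higher and 1 lower, with a median of 1.29 (1.39 abundance-corrected, with 9 higher), and 8 were higher on the scale of all named genes. The median place of the 17 in the control was 8930, and a further 29 did not reach the filter. EPHA4 had 0.566, 10.9 and 3.94 scaled FPKM (2.93), and MET, the receptor of hepatocyte growth factor, had 0.411, 8.24 and 0.793 (2.71). ALK was the 1 lower receptor, with 2.63, 0.489 and 2.64 (-1.28). Genes induced by MAP kinase signalling had 12 of 22 members higher, 0 lower and a median of 1.26 (1.14 abundance-corrected). SPRY1 and DUSP6, which dampen that pathway, had 0.135, 9.39 and 0.260 (3.19) and 0.599, 11.6 and 1.71 scaled FPKM (2.98), and the early transcription factor EGR1 stood at 2.66 while EGR2 stood at -0.60.

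In the TGF-beta and BMP pathway 15 of 28 members were higher and 0 lower, with a median of 1.07 (0.99 abundance-corrected). TGFBR2, the type II receptor that EWS-FLI1 is known to repress, had 0.445, 12.1 and 0.837 scaled FPKM (ratio 3.19), and LTBP1, which holds latent TGF-beta in the matrix, stood at 3.77. The feedback targets SMAD7 and ID1 stood at 1.71 and 1.39, and the signal carriers SMAD2 and SMAD5 at -0.53 and -0.92. In the IGF axis, whose median place in the control was 8815, 9 of 17 were higher and 1 lower. That member was the ligand IGF1, with 52.5, 12 and 26.8 scaled FPKM (-2.04), while its receptor IGF1R had 0.752, 5.54 and 0.905 (1.90) and the binding protein IGFBP2 stood at 3.96. Among Wnt ligands, receptors and antagonists, 9 of 19 were higher and 1 lower. The receptors LGR4 and ROR1 stood at 3.07 and 2.64, the antagonist DKK1 was listed at 0 in the control and had 56.9 scaled FPKM after knockdown, and LEF1, a nuclear effector of the pathway, stood at -1.02.

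Lists of known fusion targets moved apart. Among genes that the fusion is known to repress, 23 of 28 were higher and 3 lower, with a median of 3.53 (3.66 abundance-corrected). The median place of the 28 in the control was 9263, which left little room for lower members. FOXO1, a transcription factor of that list, had 0.605, 7.37 and 1.46 scaled FPKM (ratio 2.38). The 3 lower members were CAV1, the coat protein of caveolae, with 248, 84.1 and 694 (-1.55), S100A4 at -1.37 and S100A6 at -1.01. Among genes known as activated, 20 of 41 were lower and 3 higher, and the median was -0.96 (-0.81 abundance-corrected). STEAP1, a metalloreductase of the cell surface, had 177, 30.8 and 148 scaled FPKM (-2.49), and CCND1, or cyclin D1, had 20.2, 3.24 and 12.1 (-2.32). NKX2-2, a homeobox factor used to diagnose the tumour, was scarce at 0.852, 1.5 and 1.37 (0.43). The 3 higher members were SPRY1, the receptor KIT, with 4.33, 34.9 and 23.7 scaled FPKM (2.75), and PDGFC, a growth factor, at 2.54. Both lists came from general knowledge of work on Ewing cells of several lines. They were written with earlier results of these data known, so their split is not independent support.

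Transcription factors of mesenchymal and skeletal lineages had no common direction, with 8 of 37 higher, 4 lower, the median being 0.25 (-0.03 abundance-corrected). On the scale of all named genes 7 were higher and 7 lower. DLX1 and DLX2, homeobox factors, stood at 2.85 and 2.28 while the related DLX5 stood at -1.55. SNAI2, a repressor of epithelial genes, had 0.581, 6.01 and 0.456 scaled FPKM (ratio 2.15), and TWIST1, a factor of mesoderm, had 20.3, 5.92 and 17.1 (-1.62). HOX genes had 4 of 12 higher and 2 lower, or 1 and 2 after abundance correction and 1 and 3 on the scale of all named genes, and HOXD11 and HOXD13, which are abundant in this tumour, parted at 1.33 and -0.94. Neuronal genes had 8 of 32 higher and 9 lower, or 8 and 6 after correction and 4 and 9 on that scale. SCG2, a granin, stood at 2.40 and CALCB, a calcitonin-related peptide, at 3.04, whereas MAPT, or tau, had 17.8, 3.01 and 15.3 scaled FPKM (-2.23) and SYN1, a protein of synaptic vesicles, stood at -2.13.

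Markers of other cell types were read beside these groups, and their part in the results was not tested. Of 10 fibroblast markers 7 were compared, 5 of them higher and 2 lower, and their sum was 43.1 scaled FPKM in the control, 178 after knockdown and 70.4 with YK, of which the locus of COL3A1 made 1.13, 112 and 3.40. Adipocyte markers summed to 6.57, 118 and 7.14, of which FABP4, a fatty acid carrier, made 0.0336, 114 and 2.60. ADIPOQ, the hormone that defines adipocytes, had a deposited FPKM of 0.00268 after knockdown and was listed at 0 in the control. Endothelial markers summed to 0.357, 3.21 and 2.95, with CLDN5 at 0 in all 3 libraries, and none of the 10 was compared. Muscle markers summed to 7.88, 3.55 and 17.3, with MYF5 at 0 throughout.

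**Figure D5:**
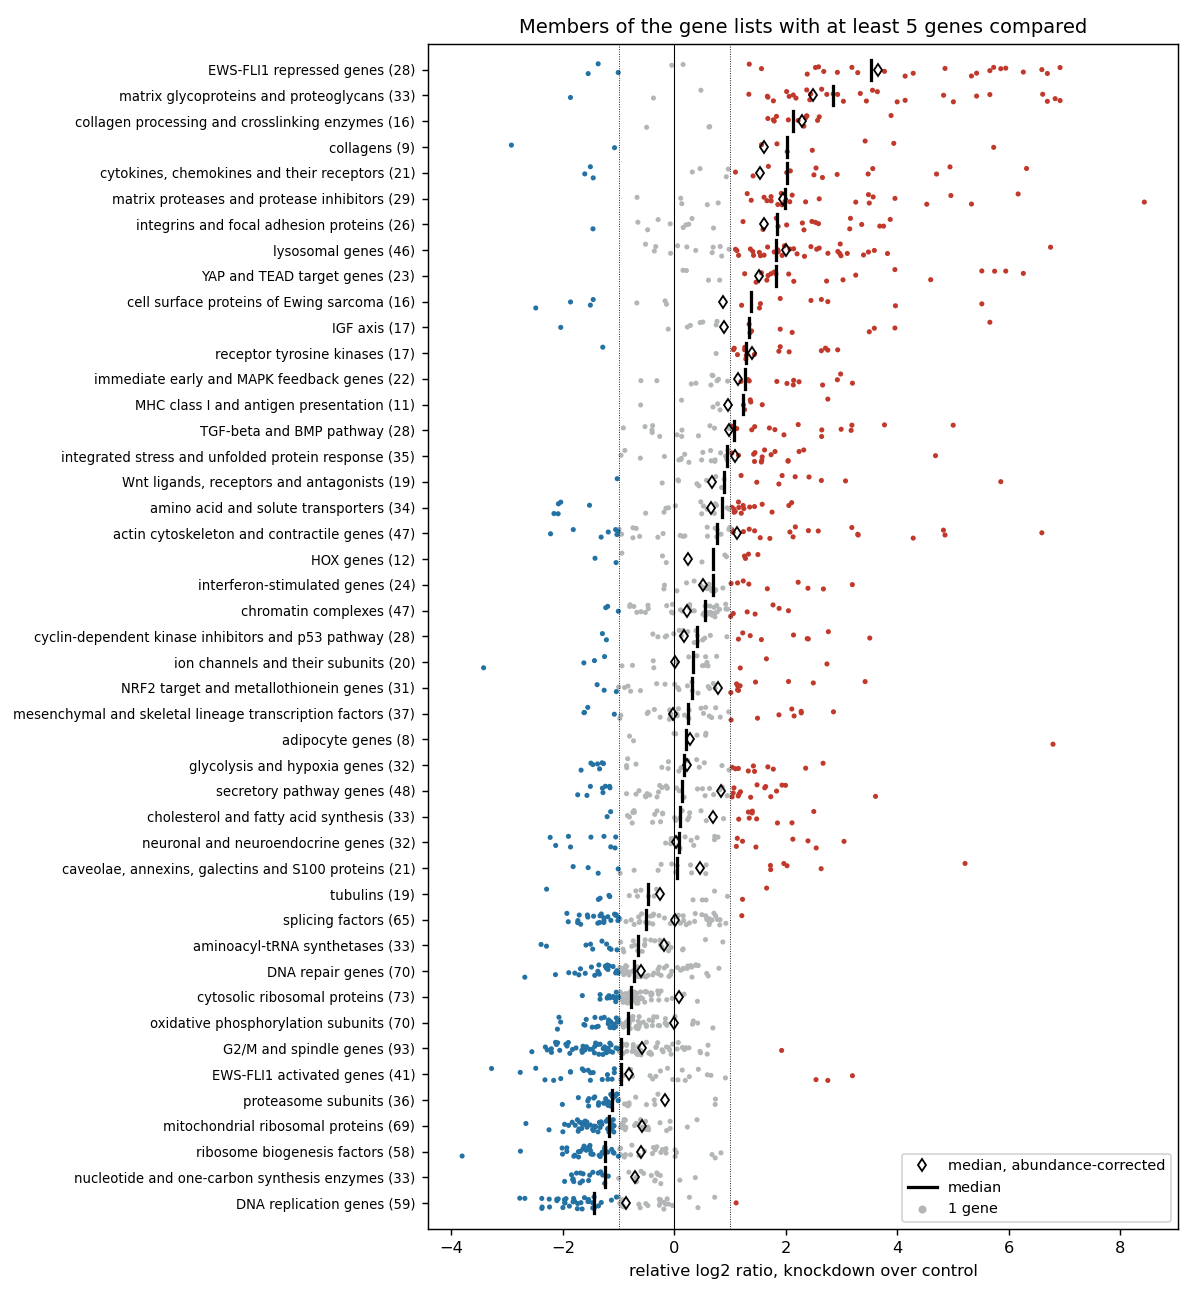
Relative log2 ratio of each compared member of the gene lists with at least 5 such members (number in brackets), 1 point a gene, red at 1 or above and blue at -1 or below; bars are list medians and open diamonds medians after abundance correction. Lists of the matrix, adhesion, lysosome and signalling lie to the right, and of lists to the left the cytosolic ribosomal proteins move to 0.08 after correction while DNA replication stays at -0.87. The ribosomal proteins are so abundant that they form part of their own reference window, so the 2 moves are not alike.

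The 30 lowest single genes were more mixed, and 22 of them stand on no list. CES1, a carboxylesterase, had 36.5, 1.90 and 131 scaled FPKM, lowest after knockdown and highest with YK. SLC38A4, an amino acid transporter, had 27.9, 1.89 and 15.0 (ratio -3.32), and CA2, a carbonic anhydrase, had 23.1, 1.95 and 17.0 (-3.03). COL13A1, GALM, which interconverts forms of galactose, and VSNL1, a neuronal calcium sensor, stood at -2.92, -2.91 and -2.79. HIST1H4C, a replication-dependent histone H4 gene, was the third most abundant compared name in the control and had 8691, 969 and 4177 scaled FPKM (-3.16). NR0B1, an orphan nuclear receptor and known direct target of the fusion, went from place 1601 to place 5648, with 38, 4.73 and 49.4 scaled FPKM. ISOC1 and WDR18 were low in both treated libraries, ISOC1 with 52.2, 2.60 and 3.94 and WDR18, a ribosome assembly factor, with 25.2, 0.871 and 0.387. MBD3L2, MBD3L3 and MBD3L5 are near-identical copies whose reads may have been shared out, so that their ratios of -4.72, -3.95 and -3.57 are uncertain one by one. With YK 6 of the 30 had a ratio of -1 or less, against 1.69% of all compared genes. Each of the 30 was lower under all 13 alternative settings, which their choice by ratio largely fixed. The YK count shares the control library by which the 30 were picked and is not independent.

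DNA replication genes were low as a group. Of 59 compared, 35 were lower and 1 higher, and the median was -1.44 (-0.87 abundance-corrected, with 26 lower and 0 higher), and their share of named FPKM went from 0.502% to 0.235%, with 0.353% under YK. CDC7, the kinase that fires origins, had 44.5, 5.65 and 31.6 scaled FPKM (ratio -2.77), and GINS1, a part of the replicative helicase, had 45.2, 6.2 and 37.1 (-2.68). MCM10 and CDC6, which load and start that helicase, stood at -2.38 and -1.94. PCNA, the sliding clamp, had 138, 38.7 and 110 (-1.81). MCM2, a helicase subunit, had 3.87, 5.53 and 3.77 scaled FPKM (0.42), unlike its partner MCM3 with 106, 19.6 and 42.8 (-2.37). POLD4, the smallest subunit of polymerase delta, was the 1 higher member at 1.11.

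Promoters of replication genes are known for sites of the E2F factors, and those of MCM3 and PCNA (chr6:52284743-52284992 and chr20:5126623-5126872, both on the minus strand) are shown for that. An E2F-type match was TTTCCCGC, TTTGGCGC, TTTCGCGC or TTTGCCGC on either strand, and the match is in capitals, 174 bases before the start of MCM3 and 59 before that of PCNA.
MCM3: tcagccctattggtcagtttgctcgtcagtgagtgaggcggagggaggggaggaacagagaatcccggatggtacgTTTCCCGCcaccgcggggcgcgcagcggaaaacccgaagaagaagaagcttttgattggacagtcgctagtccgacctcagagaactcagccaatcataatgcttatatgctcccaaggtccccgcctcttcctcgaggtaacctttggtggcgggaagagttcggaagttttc
PCNA: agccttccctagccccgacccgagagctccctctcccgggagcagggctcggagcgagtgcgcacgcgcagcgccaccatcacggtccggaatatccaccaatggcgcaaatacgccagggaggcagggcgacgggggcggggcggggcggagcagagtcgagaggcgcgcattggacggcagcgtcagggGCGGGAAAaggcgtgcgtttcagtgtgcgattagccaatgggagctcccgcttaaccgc
A match stood in 13 of the 53 promoters matched from the list (24.5%), in 5.14% of those of all lower genes, in 3.27% of those of all higher genes and in 2.79% of all promoters. Compared genes past neither threshold had a match in 5.10%, so the lower genes as a whole lay near that share.

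Genes of nucleotide and one-carbon synthesis had 18 of 33 members lower, 0 higher and a median of -1.25 (-0.70 abundance-corrected, with 7 lower). PSAT1, of serine synthesis, had 156, 42.7 and 123 scaled FPKM (ratio -1.84), MTHFD2, a folate enzyme of mitochondria, had 243, 74.9 and 224 (-1.68), and RRM2, a subunit of ribonucleotide reductase, stood at -0.68. DNA repair genes had 23 of 70 lower, 0 higher and a median of -0.72 (-0.59 abundance-corrected, with 21 lower), and 43 were lower on the scale of all named genes. EXO1, a nuclease of end resection and mismatch repair, had 36.8, 4.89 and 28.2 (-2.68), FANCI, of cross-link repair, stood at -2.13 and BRCA1 at -0.86.

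G2/M and spindle genes had 43 of 93 members lower, 1 higher and a median of -0.95. After abundance correction the median was -0.58 with 21 lower, and on the scale of all named genes 70 were lower. AURKB, the kinase of the chromosomal passenger complex, had 151, 24.8 and 95.4 scaled FPKM (ratio -2.56), and ZWINT, of the kinetochore, had 213, 42.1 and 134 (-2.31). CCNB1, or cyclin B1, had 283, 72.8 and 564 (-1.94), lowest after knockdown and highest with YK, and AURKA had the same order with 136, 42.6 and 185 (-1.65). WEE1, a kinase that blocks entry into mitosis, had 3.09, 14.5 and 3.01 scaled FPKM (1.92) as the 1 higher member. PLK1, a mitotic kinase, had 28.1, 12.1 and 45.2 (-1.15), and its promoter (chr16:23678639-23678888, plus strand) is shown for the cell cycle homology region, TTTGAA on either strand, that lies 29 bases before the start.
PLK1: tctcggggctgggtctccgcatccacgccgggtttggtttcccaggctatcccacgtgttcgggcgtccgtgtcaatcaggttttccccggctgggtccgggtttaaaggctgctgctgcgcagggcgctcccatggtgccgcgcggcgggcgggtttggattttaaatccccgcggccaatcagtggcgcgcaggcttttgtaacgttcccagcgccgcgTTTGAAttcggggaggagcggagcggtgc
This motif stood in 31 of 77 promoters matched from the list (40.3%), in 12.1% of those of lower genes, in 8.63% of those of higher genes and in 13.6% of all promoters. Compared genes past neither threshold had it in 8.44%.

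Lists of growth and housekeeping genes held more lower than higher members, and fewer of them were lower after correction for abundance. Mitochondrial ribosomal proteins had 44 of 69 members lower and 0 higher, with a median of -1.17, and 9 lower with a median of -0.57 after abundance correction. Ribosome biogenesis factors had 35 of 58 lower and 0 higher at -1.24, and 14 lower at -0.61 after correction. NPM1, the main nucleolar phosphoprotein, had 3626, 902 and 2665 scaled FPKM (ratio -2.01), and MRTO4, a ribosome assembly factor, had 119, 16.7 and 66.7 (-2.76). Proteasome subunits had 23 of 36 lower at -1.11, but 1 lower and 1 higher at -0.17 after correction. Subunits of oxidative phosphorylation had 25 of 70 lower at -0.83, and 3 lower and 2 higher at 0.00 after correction. For cytosolic ribosomal proteins the count went from 13 of 73 lower to 0, and for splicing factors from 23 of 65 lower to 1, with 8 higher. The median place of the 73 in the control was 74, so the correction sets these proteins partly against themselves. On the scale of all named genes 58 subunits of oxidative phosphorylation, 65 cytosolic ribosomal proteins and 37 splicing factors were lower. By share of named FPKM, proteasome subunits made 2.15% in the control and 1.44% after knockdown, and cytosolic ribosomal proteins 24.1% and 21.5%. SDHB, a subunit of succinate dehydrogenase, had 110, 25.9 and 100 scaled FPKM (-2.04), while NDUFA4, of complex IV, had 270, 246 and 292.

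Stress and metabolic lists were mixed. The integrated stress and unfolded protein response had 16 of 35 members higher, 0 lower and a median of 0.94 (1.08 abundance-corrected), or 9 higher and 3 lower on the scale of all named genes. NUPR1, a stress-induced nuclear protein, had 0.0383, 25.7 and 0.761 scaled FPKM (ratio 4.69), and HYOU1, a chaperone of the endoplasmic reticulum, stood at 2.32, whereas ASNS, asparagine synthetase and a target of ATF4, stood at -0.96. Genes of the secretory pathway had 15 of 48 higher and 8 lower, after abundance correction 19 higher and 0 lower, and on the scale of all named genes 7 higher and 15 lower. TRAM2, a translocon protein used in collagen synthesis, had 0.244, 14.2 and 1.04 (3.61). Cholesterol and fatty acid synthesis had 9 of 33 higher and 2 lower, but 4 higher and 10 lower on the scale of all named genes, with SQLE at 1.48 and ACAT2 at -1.21. Glycolysis and hypoxia genes had 10 of 32 higher and 7 lower, or 4 and 11 on that scale, with ADM, a vascular peptide, at 2.67 and the glycolytic enzyme TPI1 at -1.67. Of 31 NRF2 targets and metallothioneins 10 were higher and 3 lower, or 4 and 8 on that scale, with AKR1C3, an aldo-keto reductase, at 3.42.

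Inhibitors of cyclin-dependent kinases and p53 pathway genes had 9 of 28 members higher and 2 lower, with a median of 0.41 (0.18 abundance-corrected). TP53INP1, a p53-induced protein, had 0.830, 19.8 and 2.0 scaled FPKM (ratio 3.51), TNFRSF10B, a death receptor, stood at 2.76 and CDKN1C, an inhibitor of cyclin-dependent kinases, at 2.40. MDM2, the ligase that removes p53, had 15.2, 5.62 and 12 (-1.29). MHC class I and antigen presentation genes had 6 of 11 higher and 0 lower, but 3 higher and 1 lower on the scale of all named genes and 0 and 3 on deposited values. B2M, the light chain of class I molecules, had 1167, 3483 and 1965 scaled FPKM (1.58), and the immunoproteasome subunit PSMB8 had 0.0244, 0.121 and 14.1, high with YK alone. Interferon-stimulated genes had 9 of 24 higher and 0 lower, or 5 and 0 on the scale of all named genes, with GBP2, a guanylate-binding protein, at 3.19 and ISG15 at 0.74.

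Surface proteins named as targets in Ewing sarcoma had 9 of 16 members higher and 4 lower. MCAM, an adhesion molecule, had 0.471, 22 and 1.59 scaled FPKM (ratio 3.97), while IL1RAP, the co-receptor of interleukin-1, had 23.3, 7.56 and 24.9 (-1.51) and NPY1R, a neuropeptide Y receptor, stood at -1.86. Solute transporters had 15 of 34 higher and 5 lower, but 3 higher and 6 lower on the scale of all named genes, with SLC16A4, a monocarboxylate carrier, at 2.10 and the glutamate carrier SLC1A3 at -2.16. Of 21 caveolar, annexin, galectin and S100 genes 6 were higher and 4 lower. ANXA2 had 459, 1867 and 890 scaled FPKM (2.02), and LGALS1, or galectin-1, had 4.92, 7.79 and 531, so that its high level belonged to the YK library. Tubulins had 2 of 19 higher and 5 lower, or 5 and 1 when the libraries were set on the same sum and 0 and 10 on the scale of all named genes, with TUBA1A at 1.66 and TUBA1B at -2.29. Chromatin complexes had 7 of 47 higher and 3 lower, but 3 higher and 11 lower on the scale of all named genes, with SMARCA2, an ATPase of the BAF complex, at 1.77 and EZH2, the Polycomb methyltransferase, at 0.14. Ion channels had 3 of 20 higher and 4 lower, or 6 and 2 when set on the same sum, with ANO6 at 2.74 and SCNN1G, of the epithelial sodium channel, at -3.42. Aminoacyl-tRNA synthetases had 10 of 33 lower and 0 higher, but 3 lower and 2 higher after abundance correction and 22 lower on the scale of all named genes, with FARSB at -2.39. Of 8 adipocyte genes FABP4 alone passed the threshold, while 1 was higher and 2 lower on the scale of all named genes.

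Some entries at the ends were left out of the ranking. Among those above the bound of 4.60 set by the 30 highest were 17 small RNAs, 3 loci that join several gene names and the pair DKK1 and CCL2, which were listed at 0 in the control. Below the bound of -2.68 were 10 small RNAs, 1 joined locus and MALAT1, a nuclear RNA listed at 0 after knockdown with 183 scaled FPKM in the control. Small RNAs are too short for this kind of library to be counted evenly, and a value of 0 can be a failed estimate, so no fold is drawn from them. The library kit is not stated to keep strand, so reads of overlapping genes on opposite strands cannot be told apart.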

How the data were processed

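Messenger RNA was measured in 3 RNA-seq libraries, 1 a group, with cDNA made by a SMARTer kit per the labels' protocols. The authors deposited FPKM for 88434 loci, which are fragments relative to locus length and library size. The submitters' processing notes name the tools Cufflinks 2.2.1, TopHat and CASAVA 1.8.2, with the build GRCh37 (hg19). The annotation, the filters, the scaling between libraries and the handling of multiply mapped reads were not given in the sources used here.

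Deposited FPKM were summed over loci of the same gene name, which left 22714 names. Names with a mean of at least 1 FPKM over the 3 libraries were compared, 9939 in all, 546 of which join several genes. Each library was multiplied by 1 over the median of its ratio to the geometric mean, over the 9883 compared genes above 0 in all 3 libraries, which gave factors of 0.325, 1.44 and 2.12 for control, knockdown and YK. This departs from the planned design, which took the median over all named genes above 0, without the filter. Both versions were computed and their counts seen before the choice. The filtered one was taken because it matches the scale of an earlier analysis of these data and sets the median compared gene near 0. Counts on the planned scale stand beside each list whose balance it turns. A value of 1 was added before taking log2. The choice assumes that the median compared gene is equal in the libraries, so a change of all messenger RNA together cannot be seen. Levels are compared within a gene.

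Fragments were estimated from the lowest values of 154 olfactory receptor genes and from transcript lengths in GENCODE release 29, found for 9671 genes (97.3%). A fragment on 1 kb was worth about 0.0610, 0.0166 and 0.0122 FPKM. Counting SE follow from these and leave out any spread between cultures.

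The genes named are FLI1, EWSR1, the 30 highest and 30 lowest single genes above 0 in both libraries without small RNAs, and from each of 46 lists its fixed lead genes and its 3 highest and 3 lowest members. Genes outside that rule were named only for a motif, and a few that the rule names are not reported here. The lists came from general knowledge, and the members and lists were chosen with earlier results of these data known. Promoters are RefSeq sequences on GRCh38.p14, matched by symbol for 7628 compared genes. Their lists partly hold genes known as targets of the factor searched for. They were not used with coordinates of the files. Python 3.11.15, numpy 2.4.6, pandas 2.3.3 and matplotlib 3.10.9 were used.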

Additional observations from a re-analysis of the deposited data

How the results depend on the processing

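Each group is 1 library, so nothing here is checked against a replicate, and the estimated depth limits genes with few fragments, most of all those near 0 in the control. No paired analysis was possible because each group has 1 library and the labels carry no replicate numbers. The reported scaling was chosen after seeing the data in place of the planned median over all named genes, which is 1 of the 13 alternative settings. The higher genes numbered 662 with a mean FPKM of at least 5, 301 on deposited values, 3035 with libraries set on the same sum, 911 with the median over all named genes and 506 at a threshold of 2 on the log2 scale. The lower genes numbered 7094 on deposited values, 601 on the same sum, 3358 with the median over all named genes, 1077 after abundance correction and 180 at a threshold of 2. The other settings left both counts within 1.5 times. Deposited values shift the median gene to -1.75, the same sum to 0.47 and the median over all named genes to -0.50. On deposited values 21 of 181 named genes went from above to below 0. Those with a reported ratio of at least 1 were ANXA2 (-0.12), B2M (-0.57), CTSB (-0.25), HOXD11 (-0.68), ID1 (-0.37), POLD4 (-0.18), SQLE (-0.64), TFE3 (-0.26) and TUBA1A (-0.49). The medians of 24 of 46 lists did so too, and those reported at 1 or above were the IGF axis (-0.30), MHC class I (-0.57), the TGF-beta pathway (-0.46), Ewing surface proteins (-0.46), immediate early genes (-0.39), lysosomal genes (-0.12) and receptor tyrosine kinases (-0.055), which all stayed above the median gene of that scale. With the filter at 5 FPKM the medians of 8 lists went below 0, of which Ewing surface proteins, at -0.67, was the 1 reported at 1 or above. Of the 31 lists with more higher than lower members, 20 turned on deposited values, 9 with the median over all named genes, 2 with the stricter filter and 1 after abundance correction. Of the 15 with more lower members, 4 turned on the same sum, 4 after abundance correction and 1 on centred deposited ratios.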
